A study of Mus musculus with 2 samples.

Results

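Enzymes of glycolysis, the pentose phosphate pathway, the tricarboxylic acid (TCA) cycle and itaconate synthesis were examined by pathway step in RNA sequencing of RAW264.7, a mouse leukaemia line of the monocyte and macrophage lineage. The set was a fixed list of 46 gene symbols, matched to the row names of the count table, and 45 of them had a row among 56791 genes. The symbol Pc, for pyruvate carboxylase, had no row of that name. All 45 passed the filter for measured genes, a mean over both libraries of at least 1 CPM (counts scaled to library size, with 1 CPM worth 35.6 counts after treatment and 37.8 for vehicle), as did 12264 genes in all.

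Each group was a single library of wild-type RAW264.7 cells labelled as M2 polarization, and IL-4, a recombinant mouse protein, was given to each at 20 ng for 24 h. The vehicle library came from cells with IL-4 alone, and the treated library from cells that were also given 10000000 particles of a preparation named FAPD10-exos at the same time. The series states its purpose as finding the role of this preparation in M2 polarization, the state that IL-4 induces in macrophages. With 1 library per group there was no replicate check, so no test was made and every difference below describes this pair of libraries only. The treated library held 37196241 counts and the vehicle library 36152743. A ratio is the treated value divided by the vehicle value, and parentheses hold its 95% interval, which covers counting error only. In bulk RNA, fewer cells of a type and less RNA per cell cannot be told apart. The volumes behind the doses are not stated.

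Glycolysis breaks glucose down to pyruvate in the cytosol, and lactate dehydrogenase turns pyruvate into lactate. Alternatively, the mitochondrial pyruvate carrier imports pyruvate and the pyruvate dehydrogenase complex of the matrix converts it to acetyl-CoA, which the TCA cycle oxidises, while the pentose phosphate pathway branches off at glucose phosphate to make NADPH and ribose. In macrophages, classical activation is known for high glycolysis and for a TCA cycle diverted to itaconate by the enzyme Acod1, and activation by IL-4 for an intact TCA cycle with oxidative metabolism.

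Of the 45 genes, 10 were called higher after treatment, by a ratio of at least 1.5 whose interval lay above 1, namely Taldo1, Mdh2, Suclg1, Rpia, Mdh1, Pfkl, Acod1, Fh1, Gapdh and Idh3g. Pfkfb3 alone was called lower by the same measure. Among all measured genes the same rule gave 17.1% higher and 19.8% lower, against 22.2% and 2.22% of these enzymes. The median log2 ratio was 0.27 over the 45 genes and 0.01 over all measured genes. Under scaling by total counts, 5 were higher and 3 lower, whereas among all called genes the share that was higher moved from 46.3% to 32.4%. Pooled over the 45 genes, the counts made up 1.22% of the treated and 1.08% of the vehicle library, and Pkm alone gave 37.8% of them in each.

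Short transcripts were in general higher in the treated library and long ones lower, and these enzymes are mostly short. Of the 45, 32 had a principal transcript below the median of measured protein-coding genes, 2984 nt, and 9 of these 32, or 28.1%, were called higher, against 25.9% of all measured protein-coding genes below that length. Of the 13 longer members 1 was called higher and 1 lower, where the shares over all longer genes were 4.42% and 33.5%. Across the 45 genes, which share their libraries, Spearman's rho between transcript length and log2 ratio was -0.61, and it was -0.60 over 9966 measured protein-coding genes. A length-corrected log2 ratio, the value less the median of measured genes of like transcript length, is therefore given for each gene whose call or direction it changes and for most others. It turned the sign of 10 of the 45 genes, and so did a correction by the exon lengths of the table. With correction by transcript length, Pfkl and Suclg1 were the 2 genes past 1.5-fold upward, and 0 passed downward. This compares with 10.2% and 12.0% of all genes so corrected, and the median of the 45 was then 0.17.

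**Figure D1:**
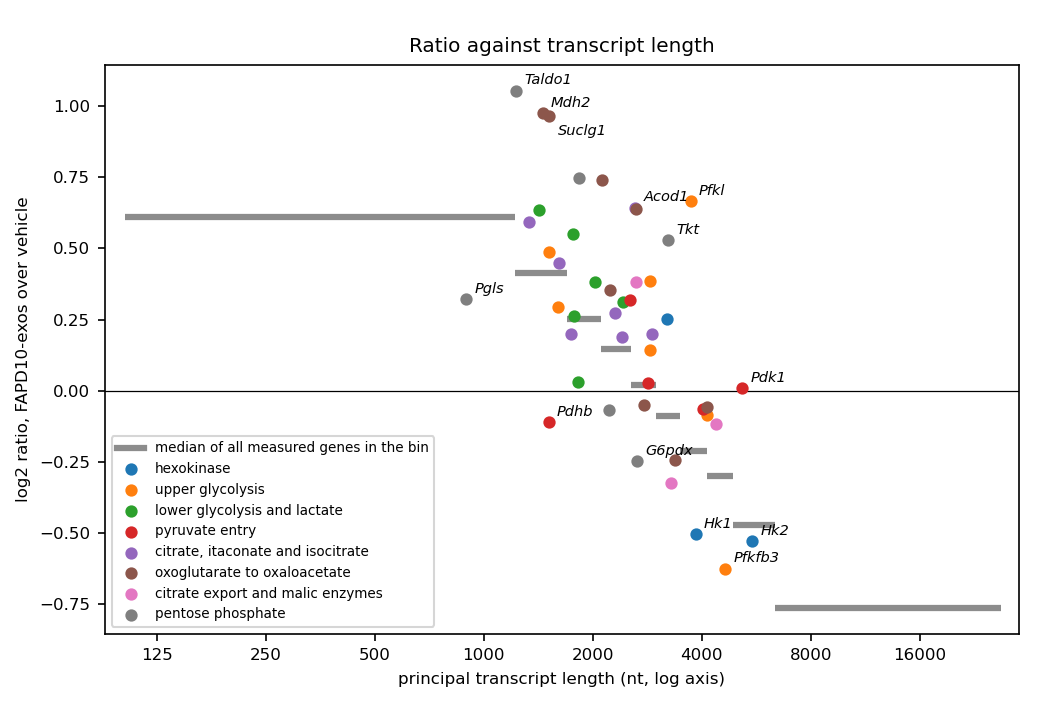
Log2 ratio of each enzyme gene (treated over vehicle) against the length of its principal transcript on a log axis, coloured by pathway step, with grey bars at the median of all measured protein-coding genes in 10 equal bins by length. The medians go from 0.61 in the shortest to -0.76 in the longest bin, and Pfkl, at 0.67 with 3730 nt, lies far above the bar at its length.

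The label of the cells was checked against markers. Of 9 macrophage markers 8 were measured and summed to 2144 CPM with treatment and 2353 CPM without, and the exception, Mertk, had 0 and 2 counts. Within that list Adgre1, which encodes F4/80, was at 6.94 against 2.38 CPM and Spi1, a myeloid transcription factor, at 191 against 119.8 CPM, both called higher, whereas Ptprc, which encodes CD45, was at 200.3 against 311 CPM and was called lower. Of the 8 measured markers, 2 were thus called higher and 1 lower, where 17.1% and 19.8% of all measured genes were. After length correction 1 was higher and 2 lower, against 10.2% and 12.0% of all genes so corrected. Adgre1 stood at 1.60 in log2, Cd68 at -0.84 and Lyz2, chosen after its values were seen, at -0.66. Spi1 and Ptprc, at 0.46 and -0.26, were no longer called. What these differences share with those of the enzymes was not tested. Fibroblast, endothelial, epithelial, lymphocyte and muscle markers summed to at most 0.731 CPM per list in either library, with 0 counts for Col1a1, Col1a2, Dcn, Epcam, Cd3e and Myod1. The handling of each culture and library cannot be told apart from the treatment.

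Levels per kilobase of principal transcript were highest for 4 glycolytic enzymes. Pkm, the muscle-type pyruvate kinase, stood at 1987 CPM per kb in treated and 1599 in vehicle cells, followed by Eno1 at 785 and 603, Aldoa at 473 and 337, and Ldha at 424 and 290. Among enzymes of mitochondria, Mdh2 stood highest, at 301 and 153 CPM per kb. The lowest levels were those of Pfkfb3, at 2.81 and 4.34, Me1, at 5.04 and 6.31, Pfkm, at 5.24 and 4.74, and Acod1, at 5.59 and 3.58 CPM per kb. The hexokinases lay between 11.6 and 51.9 CPM per kb, and Gapdh, at 59.2 and 38.1, lay below the other enzymes of lower glycolysis in both libraries.

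**Figure D2:**
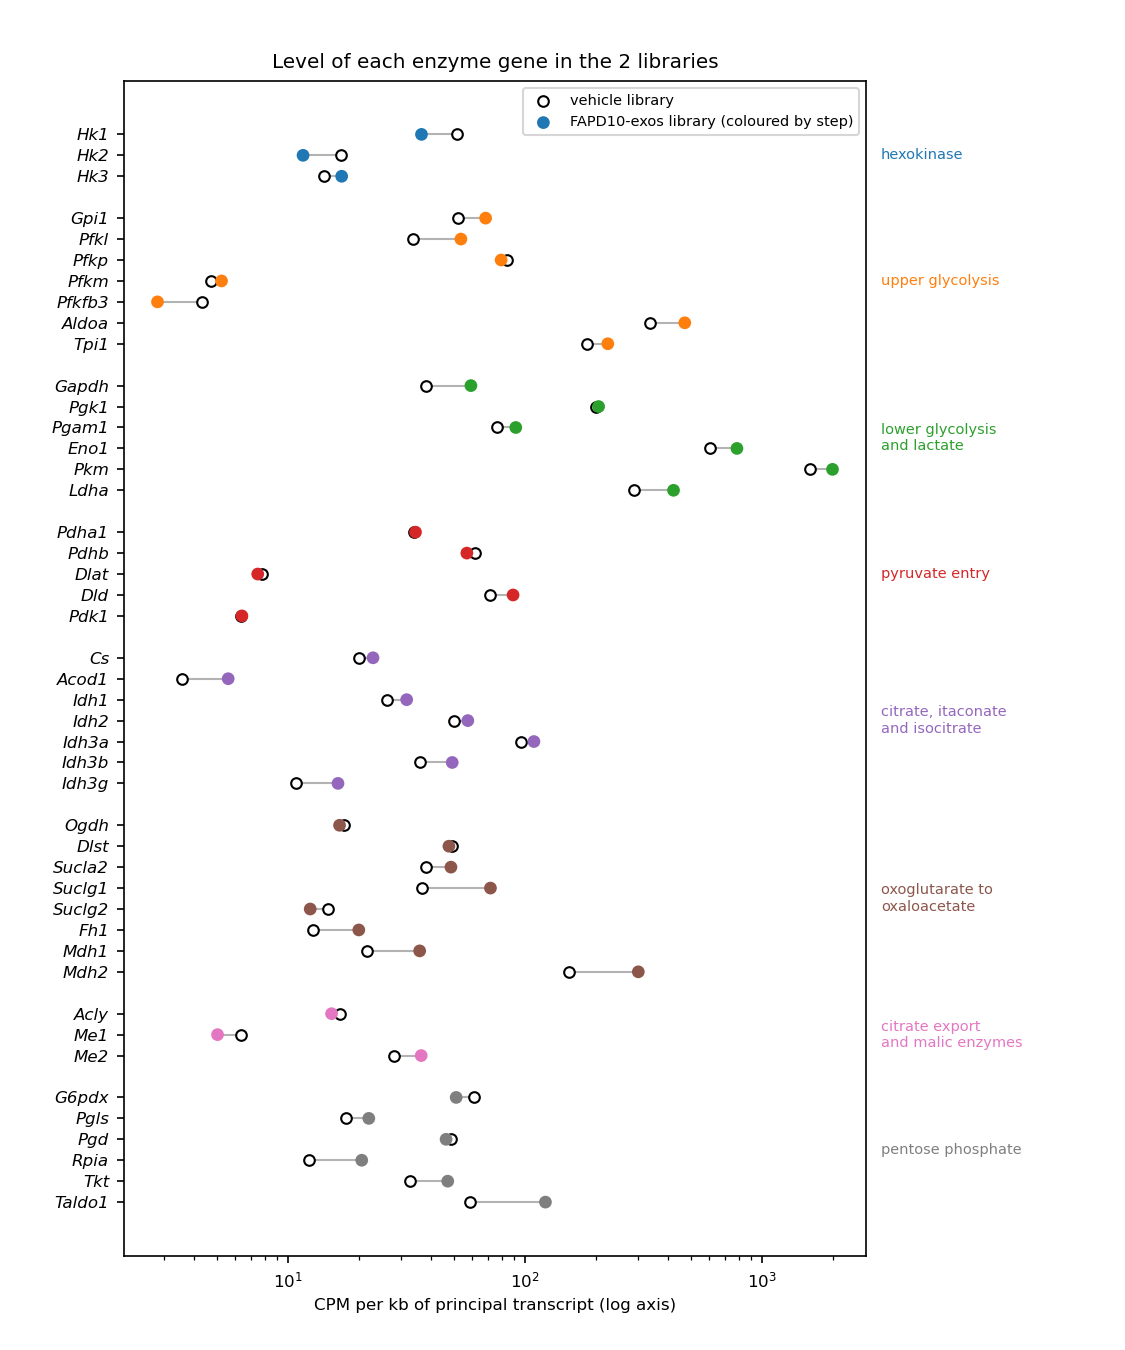
Level of each of the 45 enzyme genes in CPM per kb of principal transcript on a log axis, with open points for the vehicle library and coloured points for the treated library, grouped by pathway step. Pkm stands highest in both libraries, at 1599 and 1987 CPM per kb, and Mdh2, Suclg1 and Taldo1 show wide gaps between the libraries.

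The hexokinases, which trap glucose in the cell as glucose phosphate, did not share a direction. Hk1, the form found in most tissues, was at 141 CPM after treatment and 199.9 in vehicle, 1.42-fold lower (1.37 to 1.47). Hk2, the form known to be induced by hypoxia and growth signals, was at 63.8 and 92.0 CPM, 1.44-fold lower (1.37 to 1.52). Hk3, the form typical of myeloid cells, was at 54.2 against 45.6 CPM, a ratio of 1.19 (1.11 to 1.27). None of the 3 reached the 1.5-fold threshold, although Hk1 and Hk2 were called lower under scaling by total counts. After length correction Hk1 stood at -0.27 in log2, Hk2 at -0.06 and Hk3 at 0.31. Per length, Hk3 made up 25.9% of hexokinase counts after treatment and 17.1% in vehicle, and Hk1 56.3% and 62.7%.

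A comparison of partners within both libraries does not depend on how the libraries are scaled, and 28 such pairs, chosen after the values were seen, were computed as odds ratios with exact 95% intervals. The interval, which covers counting error only, excluded 1 for 24 of the 28. Other pairs of genes were not computed, so this count cannot be set against a share and describes these pairs only. Hk3 was 1.69-fold higher relative to Hk1 (1.57 to 1.82) and 1.71-fold relative to Hk2 (1.58 to 1.87), while Hk2 relative to Hk1 was at 0.984 (0.923 to 1.05). After correction by transcript length, Hk3 stood 0.58 above Hk1 and 0.36 above Hk2 in log2. By exon length the values were -0.07 for Hk1, -0.37 for Hk2 and 0.11 for Hk3, so the order of Hk1 and Hk2 depended on the correction.

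Phosphofructokinase catalyses the committed step of glycolysis, and its isoforms diverged. Pfkl, the liver-type subunit, was at 200.3 CPM with treatment and 126 without, a ratio of 1.59 (1.53 to 1.65). Pfkp, the platelet-type subunit, was at 329 against 349 CPM, 1.06-fold lower (1.04 to 1.09), a direction that turned to 0.18 in log2 after correction by transcript length and to 0.59 by exon length, where it was called higher. Pfkm, the muscle type, was at 15.1 against 13.7 CPM, with an interval from 0.978 to 1.2497. Relative to Pfkl, Pfkp was 1.68-fold lower (1.61 to 1.76) and stood 0.72 below it in log2 after correction by transcript length. By exon length the values were 0.59 for Pfkp and 0.94 for Pfkl. Pfkl made up 38.8% of phosphofructokinase counts per length with treatment and 27.6% without, and Pfkp 57.4% and 68.6%. After length correction Pfkl was at 0.90 in log2, the highest of the 45 genes and at percentile 96.7 of all genes so corrected. It was not called higher under scaling by total counts, at 0.54 in log2. The count table places it on chromosome 10, minus strand, from 77822781 to 77845917, in a mouse build that the sources used here do not name.

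Pfkfb3 makes fructose bisphosphate that activates phosphofructokinase. It was at 13.0 CPM in treated and 20.1 in vehicle cells, from 464 and 760 counts, which is 1.54-fold lower (1.37 to 1.73). It was the single member past the threshold downward, with 4634 nt of transcript and -0.27 in log2 after length correction, and it was not called lower under upper-quartile scaling or after length correction. Its gene lies on chromosome 2 from 11476244 to 11558888. Relative to Pfkl it was 2.45-fold lower (2.16 to 2.77).

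The other enzymes of the upper pathway were higher in the treated library by less than 1.5-fold. Gpi1, the phosphoglucose isomerase, was at 197 against 151 CPM, a ratio of 1.30 (1.26 to 1.35). Aldoa, the aldolase of most tissues, was at 714 against 510.0 CPM, a ratio of 1.40 (1.37 to 1.43), and Tpi1, which interconverts the triose phosphates, at 360 against 293 CPM, a ratio of 1.23 (1.20 to 1.26). Aldoa and Tpi1 have transcripts of 1511 and 1607 nt, and their length-corrected values were 0.08 and -0.07 in log2, against 0.37 for Gpi1.

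In lower glycolysis, 5 of the 6 genes had an interval above 1, as did 28 of the 45 members. Of the 6, Gapdh alone was called higher, where 17.1% of all measured genes were. Gapdh, the glyceraldehyde phosphate dehydrogenase, was at 84.0 against 54.2 CPM, a ratio of 1.55 (1.47 to 1.64). The call was lost under scaling by total counts, at 0.51 in log2, and after correction by transcript length, at 0.22. Its value is also uncertain, because 88.0% of its transcript matches 78 other genes of the table at 95% identity or more. With the counts of these copies added, the ratio was 1.36 (1.30 to 1.42), and the copies then held 40.7% (treated) and 48.0% (vehicle) of the sum. How multi-mapping reads were counted is not stated, and Gapdh had 2990 and 2047 counts where Pkm had 171931 and 146978.

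Ldha, which makes lactate, was at 749 CPM after treatment and 512 in vehicle, a ratio of 1.46 (1.44 to 1.49), just under the threshold, and reached it under upper-quartile scaling. Eno1, the enolase, was at 1591 against 1222 CPM, a ratio of 1.30 (1.29 to 1.32). Pkm, which makes pyruvate, was at 4832 against 3889 CPM, a ratio of 1.242 (1.234 to 1.251). Pgam1, the phosphoglycerate mutase, was at 162 against 135 CPM, a ratio of 1.20 (1.15 to 1.24). Pgk1, the phosphoglycerate kinase, was level at 373 against 366 CPM, with an interval from 0.998 to 1.05. All 6 transcripts are between 1420 and 2432 nt long, and the length-corrected values ran from -0.22 for Pgk1 to 0.22 for Gapdh, with Pgam1 at -0.10. Copies matter here too, since 85.6% of the Eno1 transcript, 68.8% of Pgk1, 65.5% of Pkm, 56.6% of Ldha and 43.1% of Pgam1 match other genes at that identity. Eno1b, a near copy of Eno1 with a row of its own, held 5448 counts where vehicle held 2712, or 2.13-fold more (2.04 to 2.23), and with the counts of 3 near copies added Eno1 stood at 1.36 (1.34 to 1.37).

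Promoters of lower glycolytic genes are known for sites of the hypoxia-inducible factor HIF-1, whose core letters are ACGTG or GCGTG. Sequence from RefSeq on GRCm38.p6 was searched for either, on both strands, in the 250 bases before each start. All 6 lower glycolytic genes held a match, as did all 6 pentose phosphate genes and all 3 hexokinases. So did both citrate export and malic enzyme genes with a window, and 34 of the 43 members that could be looked up. No share by gene was computed over all genes. By window, 73.0% of 63 member windows held a match, against 38.6% of all 32851 windows and 56.8% of the 10826 windows of measured genes. The letters ACGTG alone were in 38.1% of member windows, 16.6% of all windows and 22.3% of windows of measured genes. Those of the E-box, CACGTG, which contains ACGTG, were in 9.52%, 6.02% and 8.43%. The antioxidant response core TGACNNNGC was in 9.52%, 10.2% and 11.6%. A match is a run of letters, not a bound site. Windows of 70 bases are printed for 3 lower glycolytic genes and for Acod1, to show how these letters sit before enzymes whose ratios ran from 1.02 to 1.56. They cover bases -70 to -1 before the start, except for Pgk1. Its window was moved to bases -151 to -82, because the nearest 70 bases held no match. The Eno1 window precedes a start downstream of its most upstream one, picked by hand, so the windows are not like stretches. Capitals mark matches to the hypoxia core on either strand, and all are on the plus strand, chrX:106186949-106187018 for Pgk1, chr7:46845734-46845803 for Ldha, chr4:150237127-150237196 for Eno1 and chr14:103046942-103047011 for Acod1.
Pgk1: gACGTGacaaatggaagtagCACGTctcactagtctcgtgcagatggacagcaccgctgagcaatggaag
Ldha: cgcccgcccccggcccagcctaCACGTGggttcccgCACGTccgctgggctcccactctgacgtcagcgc
Eno1: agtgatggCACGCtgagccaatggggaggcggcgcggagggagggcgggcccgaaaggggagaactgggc
Acod1: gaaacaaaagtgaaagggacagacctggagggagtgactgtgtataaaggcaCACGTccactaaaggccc

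Transcripts of HIF-1 and its targets outside glycolysis were measured as well. Hif1a, the regulated subunit of HIF-1, was at 68.2 CPM with treatment and 136 without, 1.998-fold lower (1.90 to 2.10) and at -0.62 in log2 after length correction. Of 11 measured HIF-1 targets outside glycolysis, 1 was called higher and 1 lower, where 17.1% and 19.8% of all measured genes were. After correction by transcript length, which left out Ero1a, 0 were higher and 2 lower, where 10.2% and 12.0% of all genes so corrected were. These 2 were Mxi1 at -0.68 and Bnip3, chosen after its values were seen, at -0.61 in log2. By exon length they stood at -0.27 and -0.54, short of 1.5-fold. Ankrd37 was at 20.0 against 9.95 CPM, a ratio of 2.01 (1.77 to 2.28). Its call was lost after correction by transcript length, at 0.34 in log2, but not by exon length, at 0.65. Ero1a, an oxidase of the endoplasmic reticulum, was at 58.3 against 99.6 CPM, 1.71-fold lower (1.62 to 1.80). It had no value corrected by transcript length and stood at -0.62 in log2 by exon length, past 1.5-fold. Mxi1, an antagonist of Myc, was at 132 against 197 CPM, 1.49-fold lower (1.44 to 1.54), and Adm at 4.78 against 3.28 CPM, a ratio of 1.46 (1.15 to 1.85). The median log2 ratio of these 11 was -0.24, and without Ero1a it was -0.06 after correction by transcript length.

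Subunits of pyruvate dehydrogenase and its kinase Pdk1 were mostly near a ratio of 1. Of 5 measured genes, 0 reached 1.5-fold in either direction, where 17.1% of all measured genes were called higher and 19.8% lower. The interval held 1 for 3 of the 5 and for 7 of the 45 members, a share not computed over all measured genes. Pdha1, the alpha subunit of pyruvate dehydrogenase, was at 98.3 against 96.6 CPM, a ratio of 1.02 (0.972 to 1.07). Dlat, the acetyltransferase core, was at 30.1 against 31.5 CPM, with an interval from 0.879 to 1.04. Pdk1, the kinase that switches the complex off, was at 33.1 against 32.9 CPM, with an interval from 0.928 to 1.09. Pdhb, the beta subunit, was at 86.1 against 92.9 CPM, 1.08-fold lower (1.03 to 1.13), and Dld, the dehydrogenase shared with the oxoglutarate complex, at 227 against 182 CPM, a ratio of 1.249 (1.21 to 1.29). Correction by transcript length moved this group apart. Pdhb, with 1513 nt, then stood at -0.52 in log2, the lowest of the 45, and Pdk1, with 5185 nt, at 0.49. Dlat turned sign, to 0.16, and Pdha1 and Dld stood at 0.01 and 0.21. By exon length the spread was smaller, with Pdhb at -0.17, Pdha1 at -0.05, Dlat at -0.02, Dld at 0.18 and Pdk1 at 0.27. Ldha was 1.44-fold higher relative to Pdha1 (1.37 to 1.51), a difference of 0.18 in log2 after length correction. The RefSeq synonym of the unmatched symbol Pc is Pcx, which had 67 and 106 counts, 1.49-fold lower (1.09 to 2.05), with an interval that included 1 when counts were halved.

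At the entry of the TCA cycle all 7 intervals lay above 1, as did those of 28 of the 45 members. No such share was computed over all measured genes. Of the 7, 2 were called higher, where 17.1% of all measured genes were, and 0 after correction by transcript length. Cs, the citrate synthase, was at 66.9 against 58.2 CPM, a ratio of 1.15 (1.08 to 1.22). Acod1 turns cis-aconitate into itaconate and is known as a gene of inflammatory activation. It was at 14.7 CPM in treated and 9.39 in vehicle cells, from 522 and 355 counts, a ratio of 1.56 (1.36 to 1.79). With counts halved, as if both ends of each read pair had been counted, that interval was 1.29 to 1.90. Acod1 was 1.36-fold higher relative to Cs (1.17 to 1.58) and 1.37-fold relative to Idh3a (1.19 to 1.58). It stood at 0.56 in log2 after length correction, below 1.5-fold, and was not called higher under scaling by total counts. In the table the gene spans 103284413 to 103294009 of chromosome 14, plus strand.

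The isocitrate dehydrogenases showed small differences. Idh1, the cytosolic enzyme that makes NADPH, was at 73.0 against 60.4 CPM, a ratio of 1.21 (1.14 to 1.28), and its mitochondrial counterpart Idh2 at 100.2 against 87.2 CPM, a ratio of 1.15 (1.10 to 1.21). Idh1 relative to Idh2 was at 1.05 (0.975 to 1.13). After length correction Idh1 was at 0.17 and Idh2 at -0.165 in log2. The NAD-linked enzyme of the cycle has 3 subunits, and Idh3a was at 262 against 230.3 CPM, a ratio of 1.14 (1.11 to 1.17), Idh3b at 79.7 against 58.5 CPM, a ratio of 1.36 (1.29 to 1.44), and Idh3g at 21.6 against 14.3 CPM, a ratio of 1.51 (1.35 to 1.69). Relative to Idh3a, Idh3b was 1.20-fold and Idh3g 1.32-fold higher, in the order of their shorter transcripts, 2403, 1616 and 1331 nt. After length correction the 3 subunits stood at 0.07, 0.08 and 0.17 in log2. The call of Idh3g was lost there, under scaling by total counts, at 0.47, and under median of ratios, at 0.55.

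The steps from oxoglutarate to oxaloacetate held 4 of the 10 genes called higher, out of 8 measured, against 17.1% of all measured genes. They were counted with the cytosolic malate dehydrogenase Mdh1, which is not itself part of the TCA cycle. Mdh2, the mitochondrial malate dehydrogenase that closes the cycle, was at 438 CPM after treatment and 223 in vehicle, a ratio of 1.97 (1.91 to 2.02). Mdh1, its cytosolic counterpart in the malate-aspartate shuttle, was at 76.3 against 45.6 CPM, a ratio of 1.67 (1.57 to 1.78). Fh1, the fumarase, was at 52.5 against 33.7 CPM, a ratio of 1.56 (1.45 to 1.67). Suclg1, the alpha subunit common to both succinyl-CoA ligases, was at 109 against 55.7 CPM, a ratio of 1.95 (1.85 to 2.06). After correction by transcript length Mdh2, Mdh1, Fh1 and Suclg1 stood at 0.56, 0.53, 0.55 and 0.62 in log2, and Suclg1 alone stayed past 1.5-fold. By exon length they stood at 0.83, 0.43, 0.49 and 1.01, and Mdh2 and Suclg1 stayed past it. Mdh2, Mdh1 and Suclg1 were called higher under all scalings tried, and Fh1 was not under scaling by total counts.

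The beta subunits of succinyl-CoA ligase decide whether ATP or GTP is made, and they differed from the alpha subunit. Sucla2, of the ATP-forming enzyme, was at 109 against 85.0 CPM, a ratio of 1.28 (1.22 to 1.34). Suclg2, of the GTP-forming enzyme, was at 41.8 against 49.5 CPM, 1.18-fold lower (1.11 to 1.27). Relative to Suclg1, Suclg2 was 2.31-fold lower (2.12 to 2.52) and Sucla2 1.53-fold lower (1.42 to 1.64), with differences of -0.70 and -0.43 in log2 after length correction. Per length, Sucla2 made up 79.7% of beta-subunit counts with treatment and 72.2% without. The Suclg2 transcript matches 1 other gene over 38.7% of its length, and that copy had 78 and 96 counts. Ogdh and Dlst, subunits of the oxoglutarate dehydrogenase complex, were nearly level, at 68.1 against 70.9 CPM and 132 against 137 CPM, with intervals of 0.909 to 1.02 and 0.929 to 1.01. After length correction Ogdh was at 0.17, Dlst at 0.05, Sucla2 at 0.19 and Suclg2 at -0.09 in log2. Suclg1 lies on chromosome 6 from 73225365 to 73253894 and Mdh2 on chromosome 5 from 135807334 to 135819252, both on the plus strand in the table.

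**Figure D3:**
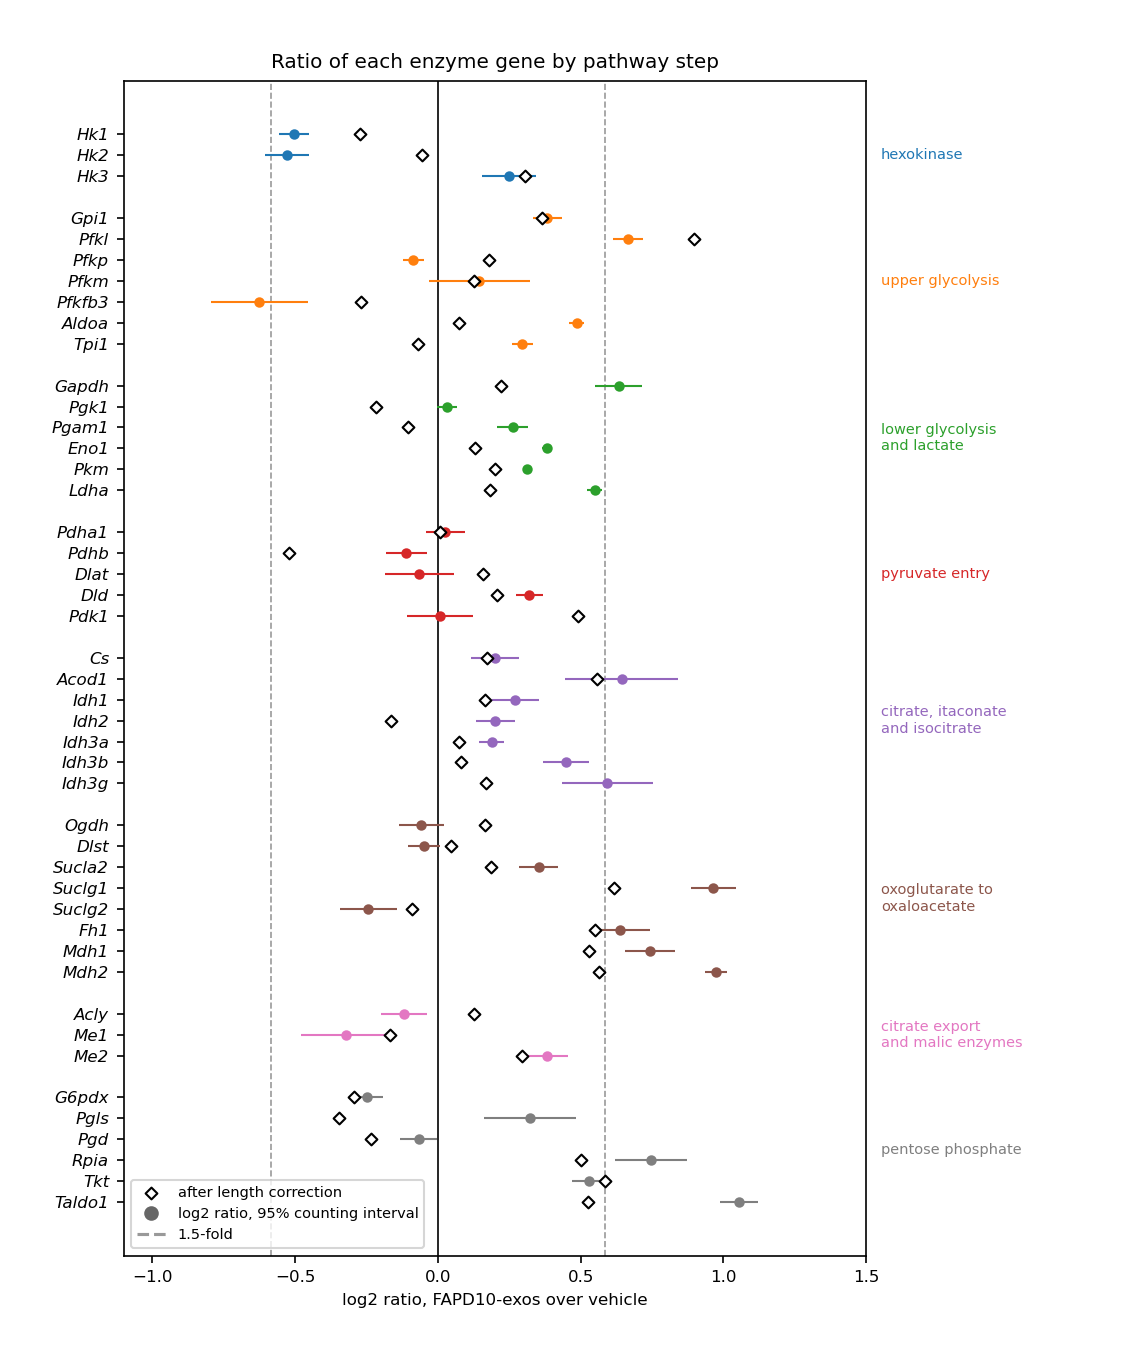
Log2 ratio of each of the 45 enzyme genes, treated over vehicle, with 95% counting intervals, grouped by pathway step. Open diamonds give the value after length correction and dashed lines mark 1.5-fold, which 10 genes pass upward and Pfkfb3 downward before correction.

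Other genes of the cycle and its side reactions, a list chosen with earlier results of these data known, gave 4 higher and 0 lower of 17 measured. Among all measured genes 17.1% were higher and 19.8% lower. After length correction 2 of the 17 were higher and 0 lower, against 10.2% and 12.0% of all genes so corrected. Of the succinate dehydrogenase subunits, Sdhc was at 111 against 56.5 CPM, a ratio of 1.96 (1.86 to 2.07), Sdhd at 77.1 against 41.5 CPM, a ratio of 1.86 (1.74 to 1.98), and Sdhb at 35.7 against 21.3 CPM, a ratio of 1.68 (1.53 to 1.83). Pck2, the mitochondrial phosphoenolpyruvate carboxykinase, was at 30.9 against 15.2 CPM, a ratio of 2.04 (1.84 to 2.26). After length correction Sdhc and Pck2 stood at 1.03 and 1.17 in log2, Sdhd and Sdhb at 0.36 and 0.23, and Sdha at 0.09. The median log2 ratio of the 17 was 0.26, and 0.07 after length correction.

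Acly splits exported citrate for lipid synthesis and acetylation, and the malic enzymes turn malate into pyruvate. Acly was at 67.1 against 72.8 CPM, 1.09-fold lower (1.03 to 1.15), and relative to Cs it was 1.246-fold lower (1.15 to 1.35). After correction by transcript length Acly turned to 0.13 in log2, and its difference from Cs was -0.05. By exon length Acly stood at 0.03 and Cs at 0.37. Me1, the cytosolic malic enzyme, was at 16.6 against 20.7 CPM, 1.251-fold lower (1.12 to 1.39), and Me2, in mitochondria, at 96.3 against 73.8 CPM, a ratio of 1.30 (1.24 to 1.37). Me1 was thus 1.63-fold lower relative to Me2 (1.45 to 1.84), and 0.46 below it in log2 after length correction. Per length it made up 12.1% of the counts of the pair in treated and 18.4% in vehicle cells. Over 62.5% of its transcript Me1 matches 3 other genes, which together had 31 and 58 counts.

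Of the 6 pentose phosphate enzymes 2 were called higher, against 17.1% of all measured genes, and both were in the non-oxidative arm. In the oxidative arm, which makes NADPH, G6pdx, the entry enzyme glucose phosphate dehydrogenase, was at 136 against 161 CPM, 1.19-fold lower (1.14 to 1.23). Pgd, the phosphogluconate dehydrogenase, was at 103 against 108 CPM, a ratio of 0.955 (0.913 to 0.999), and the interval included 1 with counts halved. Pgls, the lactonase between them, was at 19.6 against 15.7 CPM, a ratio of 1.2504 (1.12 to 1.398), and 20.6% of its exon length lies in other genes, so its value is uncertain. After correction by transcript length G6pdx, Pgd and Pgls stood at -0.29, -0.23 and -0.35 in log2, but by exon length at -0.40, 0.16 and 0.245.

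In the non-oxidative arm, which links pentoses back to glycolysis, all 3 genes were higher in the treated library. Taldo1, the transaldolase, was at 150.02 CPM after treatment and 72.2 in vehicle, a ratio of 2.08 (1.98 to 2.18), the highest of the 45. Rpia, the ribose phosphate isomerase, was at 37.5 against 22.3 CPM, a ratio of 1.68 (1.54 to 1.83). Tkt, the transketolase, was at 152 against 106 CPM, a ratio of 1.44 (1.38 to 1.504), under the threshold. Values after correction by transcript length were 0.53 for Taldo1, 0.50 for Rpia and 0.58 for Tkt in log2, and by exon length 0.76, 0.90 and 0.85. Relative to G6pdx, Taldo1 was 2.46-fold higher (2.32 to 2.62), Rpia 1.99-fold (1.81 to 2.19) and Tkt 1.71-fold (1.62 to 1.81), with differences of 0.82, 0.79 and 0.88 in log2 after length correction. Per kilobase, Taldo1 was at 0.966 of the level of G6pdx in the vehicle and 2.38 times it in the treated library. In the table Taldo1 spans 140972112 to 140982881 of chromosome 7, plus strand.

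Of 6 other measured pentose phosphate genes, 1 was called higher and 1 lower, before and after length correction. Over all genes the shares were 17.1% and 19.8% before correction, and 10.2% and 12.0% after it. Rpe, the epimerase of the non-oxidative arm, was at 15.7 against 8.92 CPM, a ratio of 1.76 (1.53 to 2.02), and at 0.77 in log2 after length correction. H6pd, the oxidative enzyme of the endoplasmic reticulum, was at 3.65 against 4.79 CPM, 1.31-fold lower (1.04 to 1.66). Prps2, which makes phosphoribosyl pyrophosphate, was at 13.3 against 11.7 CPM, and Rbks, the ribokinase, had 52 counts in each library. Shpk, chosen after its values were seen, was the gene called lower, from 30 against 56 counts. Nfe2l2, which encodes NRF2, a factor known to drive pentose phosphate genes, was at 95.1 against 144 CPM, 1.51-fold lower (1.45 to 1.58), and at -0.71 after length correction. Among 13 measured regulators 0 were called higher and 3 lower, where 19.8% of all measured genes were lower, namely Hif1a, Nfe2l2 and Stat6, which carries the IL-4 signal and was at 48.7 against 73.96 CPM, 1.52-fold lower (1.43 to 1.61). After correction by transcript length the call of Stat6 was lost, at -0.37 in log2, but by exon length it stood at -0.61, past 1.5-fold. By transcript length 0 regulators were higher and 2 lower, against 10.2% and 12.0% of all genes so corrected. Esrra, a regulator of mitochondrial genes, was at 10.9 against 7.67 CPM, a ratio of 1.42 (1.22 to 1.66).

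**Figure D4:**
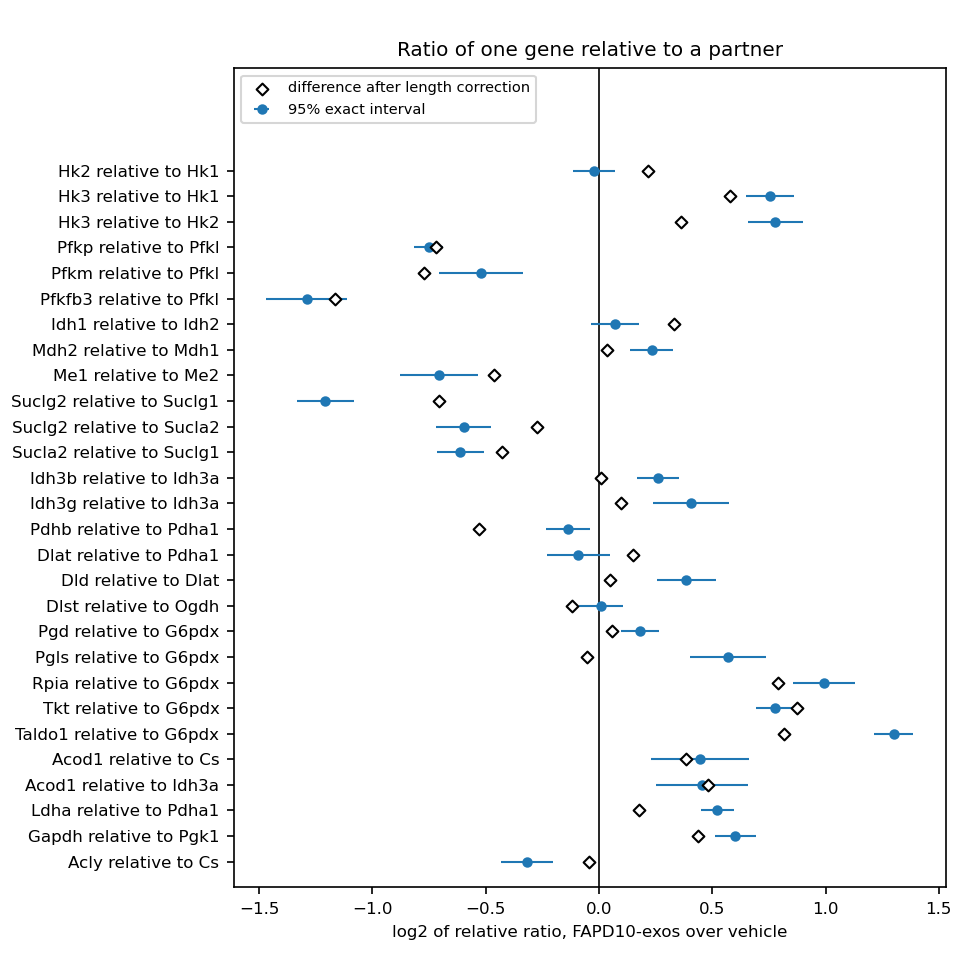
Log2 of the ratio of a gene relative to a partner enzyme, treated over vehicle, for 28 pairs, with exact 95% intervals, and open diamonds for the difference after length correction. Taldo1, Rpia and Tkt lie above G6pdx by 0.78 to 1.30, and Suclg2 lies 1.21 below Suclg1.

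Remaining genes around these pathways were mostly between the thresholds. For each list below, the shares over all measured genes were 17.1% called higher and 19.8% lower. Of 13 other measured glycolysis genes, 1 was called higher and 1 lower, and their median was 0.05 in log2. Eno3, a further enolase, was at 10.1 against 4.95 CPM, a ratio of 2.05 (1.71 to 2.46), and Pfkfb2, a relative of Pfkfb3, at 2.501 against 6.67 CPM, 2.67-fold lower (2.09 to 3.43). After length correction they stood at 0.69 and -1.13 in log2. Galm, the galactose mutarotase, was at 4.72 against 3.25 CPM, and Bpgm, the bisphosphoglycerate mutase, at 10.4 against 7.46 CPM, both between the thresholds. Of 9 measured transport genes, with a median log2 ratio of 0.24, 2 were called higher and 0 lower, Mpc2 of the mitochondrial pyruvate carrier at 14.4 against 6.38 CPM, a ratio of 2.27 (1.94 to 2.65), and the glucose transporter gene Slc2a6 at 14.3 against 8.89 CPM, a ratio of 1.61 (1.40 to 1.86). After length correction Mpc2 stood at 0.60 and Slc2a6, no longer called, at 0.48 in log2. Slc16a3, chosen after its values were seen, was then called higher, at 0.61. Of the transport genes 2 were thus higher and 0 lower, against 10.2% and 12.0% of all genes so corrected. Slc2a3, another glucose transporter, was at 10.6 against 15.0 CPM, 1.42-fold lower (1.24 to 1.62), and Bsg, the partner of lactate transporters, at 545 against 402 CPM, a ratio of 1.36 (1.33 to 1.39). Among 7 other measured genes of pyruvate dehydrogenase and its control 1 was called higher and 1 lower, with a median of 0.12. Pdpr was at 3.29 against 9.21 CPM, 2.80-fold lower (2.27 to 3.48), and Pdp1 at 2.87 against 1.91 CPM, a ratio of 1.505 (1.10 to 2.06) from 102 and 72 counts, with an interval that included 1 when counts were halved. Pdhx was at 53.2 against 37.998 CPM and the phosphatase gene Pdp2 at 7.08 against 10.5 CPM, both between the thresholds. Clybl, which clears the itaconate product citramalyl-CoA, was at 13.1 against 9.21 CPM, a ratio of 1.42 (1.24 to 1.64), and at -0.02 in log2 after length correction. Among reference genes, Actb had a ratio of 1.18, Hprt of 1.36 and Tbp of 0.984, with length-corrected values of -0.02, -0.09 and 1.00 in log2.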

How the data were processed

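RNA sequencing counts from 1 vehicle and 1 treated library of RAW264.7 cells were used. The authors deposited raw counts per gene with exon lengths, in the featureCounts layout per the file headers. The software named is fastp 0.23.4, STAR 2.5.3a and featureCounts, per the submitters' processing notes, which name GRCh38, a human build, although the symbols are mouse. Strand setting, annotation release and treatment of multi-mapping reads are not stated in any source used here, so overlapping and antisense genes cannot be told apart.

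Counts were scaled by TMM (edgeR 4.0.16, R 4.3.3; factors 0.957 treated, 1.05 vehicle), so that 1 CPM was 35.6 and 37.8 counts. The quasi-likelihood test could not be fitted without residual degrees of freedom. Ratios carry exact Clopper-Pearson 95% intervals, with 0.5 added where a count was 0. Among counts of 1 to 50, 76.3% and 75.1% were even, so intervals were also computed with counts halved. Length correction subtracted the median of 50 equal bins by principal transcript length (GENCODE M21, by symbol). Copies were found with blastn 2.17.0 at 95% identity over at least 150 nt. Alternatives used scaling by total counts, DESeq2 1.42.0 median of ratios and upper quartile, other filters and thresholds. All members were named. From each other list, up to 4 measured genes with the largest absolute log2 ratio and at least 100 counts were named. Members and lists were chosen with earlier results of these data known. The code for ratios, calls and length correction was tested on simulated counts with counting error only, scaled by total counts and using exon lengths. That test does not cover differences between cultures, TMM scaling or correction by transcript length. Computations used scipy 1.17.1, pandas 2.3.3 and numpy 2.4.6 under Python 3.11.15, with figures in matplotlib 3.10.9.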

Additional observations from a re-analysis of the deposited data

How the results depend on the processing

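The number of enzymes at least 1.5-fold higher was 10 and the number lower 1, with a median log2 ratio of 0.27. Scaling by total counts gave 5 higher, 3 lower and a median of 0.14, and upper-quartile scaling 12 higher, 0 lower and 0.34. These scalings moved the median of all measured genes by -0.128 and 0.068. A threshold of 0.32 in log2 gave 19 higher and 4 lower, and a 2-fold threshold 1 and 0. Correction by transcript length gave 2 higher, 0 lower and a median of 0.17, and correction by the table's exon lengths gave 10 higher, 6 of them among the first 10, and 0 lower. Median of ratios, no filter, a filter at 10 CPM, halved counts, leaving out 6 members with overlap or named copies and, chosen after seeing the data, adding near copies kept the counts within 1.5-fold of 10 and 1, and where a median was computed it was 0.23 to 0.27. Pooled counts, for which only the median value was computed, gave 0.31. None of the 11 called genes changed sign under the 3 scalings or the 2 length corrections. No paired analysis was possible because each group holds 1 library. Depth limits the precision of Pcx, Acod1, Pfkm and Pfkfb3 most.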
